A study of Homo sapiens with 2 samples.

Results

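The genes described here are 10 transcripts known as markers of liver sinusoidal endothelium: the scavenger and hyaluronan receptors *STAB1*, *STAB2* and *LYVE1*, the C-type lectins *CLEC4G* and *CLEC4M*, the ficolins *FCN2* and *FCN3*, and the secreted proteins *OIT3*, *CRHBP* and *F8*. They were picked by symbol from the 36601 genes of the count tables, and all 10 are listed there. Their levels were read in *CDH5*-positive cells with and without *NR2F2*, and in the other lineages, of 2 blood-generating heart-forming organoids (BG-HFOs) on day 14. Both organoids, 32.7 and 33.10, were formed from the human embryonic stem cell line hES3 NKX2.5-eGFP, which carries a green fluorescent reporter at the cardiac gene *NKX2-5*, under the same treatment, and each gave 1 single-cell library. They are replicates of 1 condition from 1 line, so cell classes were compared within them and no treatment was tested.

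Sinusoidal endothelium lines the blood channels of the liver and is thin, fenestrated and active in endocytosis. Its stabilins and lectins clear waste molecules and particles from blood, its ficolins belong to the lectin pathway of complement, and it is a main source of coagulation factor VIII. In development such endothelium is related to veins, whose identity depends on the nuclear receptor NR2F2, whereas NOTCH signalling and its HEY targets go with arterial identity. Several of these markers are also found outside the liver, in lymphatic vessels, macrophages or embryonic veins.

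Of 16792 and 19893 cells kept in organoids 32.7 and 33.10 (order used throughout), 4378 and 4360 had at least 1 unique molecular identifier (UMI, 1 per captured RNA molecule) of *CDH5*, the cadherin of endothelial junctions. Cells were called endothelial when at least 3 of 6 other pan-endothelial genes were also detected and no second lineage was, which left 2510 and 2526 cells. A further 1155 and 1172 were set aside for markers of a second lineage, and 713 and 662 had too few endothelial genes. The number of cells with 2 of the 6 genes, just outside the limit, was 384 and 371, and with 3 it was 624 and 720. At least 1 UMI of *NR2F2* was found in 734 and 678 endothelial cells (NR2F2-positive), and none in 1776 and 1848 (NR2F2-zero). Median depths were 13094.5 and 11081 UMIs per cell in the former and 11654 and 9276 in the latter. *CDH5* and the 6 other pan-endothelial genes summed to 2766 and 2360 CPM (UMIs of a gene divided by all UMIs of the class, scaled as counts per 1000000) in NR2F2-positive and 3330 and 3017 in NR2F2-zero cells. Markers of liver or gut endoderm placed only 83 and 14 cells in that class, so the label of liver names where these genes are known from and not the tissue measured. The libraries shared 100 cell barcodes.

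The genes lie on separate chromosomes, except that *CLEC4G* and *CLEC4M* are both on chromosome 19 (GRCh38, 7728957 to 7733906 and 7763210 to 7769605). *STAB1* spans 52495338 to 52524495 of chromosome 3, *STAB2* 103587273 to 103766719 of chromosome 12, *LYVE1* 10556966 to 10611689 of chromosome 11, *FCN3* 27369110 to 27374824 of chromosome 1, *FCN2* 134880810 to 134887523 of chromosome 9, *OIT3* 72893584 to 72933036 of chromosome 10, *CRHBP* 76953045 to 76981158 of chromosome 5 and *F8* 154835788 to 155026940 of chromosome X. On the same strand *LYVE1* overlaps *IRAG1*, *STAB2* overlaps *U8*, *F8* overlaps *EEF1A1P31*, *ZNF622P1* and others, and *CLEC4G* overlaps a gene without a symbol. Reads from inside these genes are less certain. *F8* also holds *F8A1* on the opposite strand. *CLEC4M* and *FCN2* have close paralogues (*CD209* and *FCN1*).

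RefSeq promoter sequences matched 6 of the 10 genes. The 250 bases before the start site of *STAB1*, *STAB2*, *CRHBP* and *F8* are shown because their levels were higher in cells with *NR2F2*, and *GATA4* and *MAF* are among the genes tested against them. Capitals mark the letters AGGTCA (the core that nuclear receptors bind), GATAA (GATA factors) or TGCTGA (MAF factors), on either strand.
STAB1 (GRCh38.p14, chr3:52495088-52495337, plus strand): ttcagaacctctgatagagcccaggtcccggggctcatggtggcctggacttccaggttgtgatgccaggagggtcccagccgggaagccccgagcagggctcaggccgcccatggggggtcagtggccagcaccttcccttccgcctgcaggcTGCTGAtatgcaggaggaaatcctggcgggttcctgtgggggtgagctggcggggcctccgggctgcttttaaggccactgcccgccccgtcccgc
STAB2 (chr12:103587023-103587272, plus strand): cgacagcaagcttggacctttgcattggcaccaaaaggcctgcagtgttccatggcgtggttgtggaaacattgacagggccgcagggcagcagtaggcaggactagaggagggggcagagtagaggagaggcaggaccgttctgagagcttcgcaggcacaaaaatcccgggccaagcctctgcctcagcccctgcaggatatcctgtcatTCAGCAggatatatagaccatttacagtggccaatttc
CRHBP (chr5:76952795-76953044, plus strand): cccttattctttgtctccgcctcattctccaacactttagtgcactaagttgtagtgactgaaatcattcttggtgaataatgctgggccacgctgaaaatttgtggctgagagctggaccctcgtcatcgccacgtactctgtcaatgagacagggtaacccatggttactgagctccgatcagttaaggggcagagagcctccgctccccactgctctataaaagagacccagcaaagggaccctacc
F8 (chrX:155022724-155022973, minus strand): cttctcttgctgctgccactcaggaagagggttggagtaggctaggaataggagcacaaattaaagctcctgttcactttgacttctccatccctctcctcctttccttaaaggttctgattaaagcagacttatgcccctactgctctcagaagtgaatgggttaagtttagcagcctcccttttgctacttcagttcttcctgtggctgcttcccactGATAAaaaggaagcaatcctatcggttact
*STAB1* and *STAB2* each held 1 match to the MAF letters, *F8* held 1 to the GATA letters, and *CRHBP* held none of the 3. Of the other matched genes, *CLEC4M* held 1 nuclear receptor core and *FCN2* none. Among all 35116 promoters of this length, 12.1% held AGGTCA, 20.4% GATAA and 14.0% TGCTGA, so such matches are common, and a match does not show binding.

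The scavenger receptors differed in how they followed *NR2F2*. *STAB2*, the hyaluronan receptor for endocytosis, was at 23.5 and 16.6 CPM in NR2F2-positive cells and at 0.430 and 0.723 CPM in NR2F2-zero cells, where only 10 and 15 UMIs were counted. *STAB1*, its relative that clears modified proteins, was at 65.7 and 50.4 CPM against 24.4 and 21.3 CPM. *LYVE1*, a hyaluronan receptor also used as a lymphatic marker, was at 24.4 and 16.3 CPM against 26.2 and 15.4 CPM. Both stabilins were thus higher with *NR2F2* in both organoids, and the *LYVE1* ranges overlapped. Markers of other cells moved with this split. The 7 macrophage markers summed to 56.5 and 60.6 CPM in NR2F2-positive and 33.4 and 21.7 CPM in NR2F2-zero cells, and the 9 mesenchymal and epicardial markers to 102 and 118 CPM against 58.4 and 65.5 CPM. Only 1 of the 7 and 2 of the 9 were above 10 CPM in each class of each organoid. The part of macrophage and mesenchymal cells in the levels of *STAB1*, *CRHBP* and *F8*, which those cells also hold, was not tested.

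Among the lectins, *FCN3*, which starts the lectin pathway of complement, was found in both classes, at 405 and 326 CPM in NR2F2-positive and 237 and 235 CPM in NR2F2-zero cells. The classes did not overlap, but the difference was small, 1.71-fold and 1.39-fold. *CLEC4G*, a lectin of mature sinusoids, had no UMI in either endothelial class, which allows up to 0.278 and 0.336 CPM in NR2F2-positive cells, and 0 and 1 UMI in all cells. *CLEC4M* had 3 and 0 UMIs in NR2F2-positive cells and 3 and 1 in NR2F2-zero cells. *FCN2* had 6 and 0 against 0 and 1. At this depth these 3 genes could not be compared between classes, and limits of this kind cover counting error only.

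Of the secreted proteins, *CRHBP*, which binds corticotropin-releasing hormone, had the largest difference in level between the classes. It was at 338 and 310 CPM in NR2F2-positive cells and at 34.5 and 28.7 CPM in NR2F2-zero cells, 9.78-fold and 10.8-fold higher. *OIT3*, a zona pellucida domain protein, was at 235 and 244 CPM against 76.8 and 87.3 CPM. *F8*, coagulation factor VIII, was low, at 11.3 and 9.73 CPM against 3.78 and 3.52 CPM, 2.99-fold and 2.77-fold. Both organoids had the higher value in NR2F2-positive cells for each of these genes.

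To set the genes beside all others, ratios were taken after adding 5 CPM to both levels, which lowers the ratio of weakly expressed genes. *STAB1*, *STAB2*, *OIT3* and *CRHBP*, 4 of the 10 genes, were at least 2-fold higher in NR2F2-positive cells in both organoids. Of all 12171 genes at 5 CPM or more in either class, 1.91% were higher by this rule and 0.756% lower. The mean log2 ratios were 3.17 for *CRHBP*, 2.15 for *STAB2*, 1.49 for *OIT3*, 1.17 for *STAB1*, 0.84 for *F8*, 0.61 for *FCN3* and -0.01 for *LYVE1*. Only these 7 genes reached 5 CPM. The genes were chosen with this split in view, so these values describe them and carry no test. *STAB1* fell below the 2-fold limit in at least 1 organoid when levels were scaled by TMM, which moved the median log2 ratio of all genes to -0.08 (0.03 in plain CPM), when every *CDH5*-positive cell was used, or when cells of a second lineage were kept. *F8* passed it when cells were thinned before *NR2F2* was read.

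**Figure D1:**
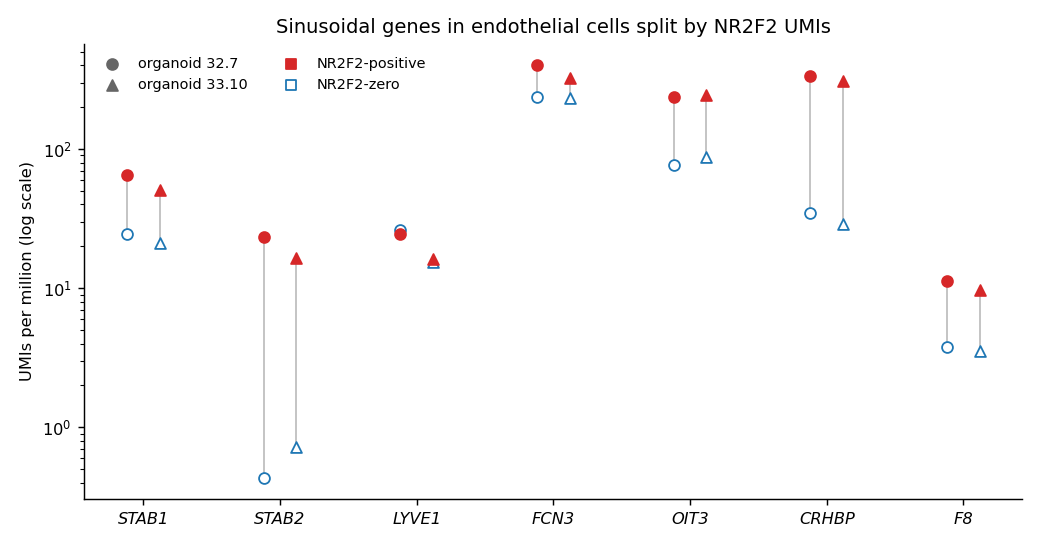
Level of each of the 7 genes above 5 CPM (CPM, log scale) in NR2F2-positive (filled red) and NR2F2-zero (open blue) endothelial cells of organoid 32.7 (circles) and 33.10 (triangles), with a line joining both classes of an organoid. *STAB2* and *CRHBP* are farthest apart (23.5 and 16.6 against 0.430 and 0.723 CPM, and 338 and 310 against 34.5 and 28.7 CPM), and *LYVE1* overlaps.

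The genes also differed in how they followed the number of *NR2F2* UMIs per cell. In organoid 32.7, *STAB1* was at 24.4, 36.1, 49.7, 68.8 and 114 CPM in cells with 0, 1, 2 to 3, 4 to 7 and 8 or more *NR2F2* UMIs, and in organoid 33.10 it was at 21.3, 29.0, 50.3, 64.7 and 74.1 CPM. *STAB2* went from 0.430 through 6.91, 19.8 and 29.3 to 42.1 CPM in organoid 32.7 and from 0.723 through 5.94, 7.63 and 14.6 to 58.6 CPM in organoid 33.10. Both stabilins were higher in each bin than in the one before it, in both organoids. *CRHBP* was at 166 and 204 CPM in cells with 1 *NR2F2* UMI and at 413 CPM in both organoids in those with 8 or more, after 523 and 350 CPM at 4 to 7. *OIT3* and *FCN3* reached most of their level at 1 UMI, with 210 and 203 CPM and 399 and 330 CPM, and were at 262 and 222 CPM and 403 and 302 CPM in the last bin. *LYVE1* had no order across the bins (11.6 to 28.4 CPM). The last bin held 149 and 74 cells and was the deepest, at medians of 16452 and 15599.5 UMIs per cell against 10911 and 10188 at 1 UMI, and the part of depth in these steps was not tested. Macrophage markers were at 33.4 and 21.7 CPM at 0 UMIs, 73.0 and 70.9 CPM at 2 to 3, 68.4 and 85.7 CPM at 4 to 7 and 52.4 and 54.1 CPM at 8 or more. Mesenchymal markers were at 58.4 and 65.5 CPM at 0 UMIs, 126 and 156 CPM at 1 and 52.4 and 85.2 CPM at 8 or more, so neither sum was highest in the last bin, and their part was not tested.

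**Figure D2:**
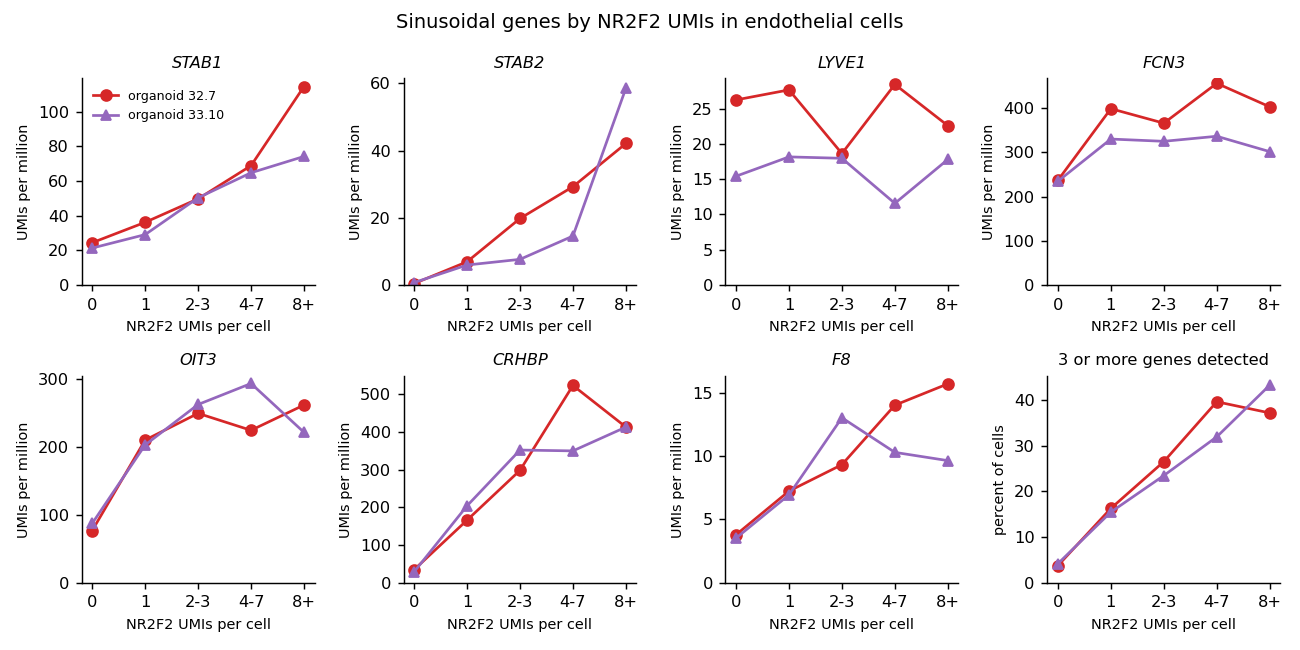
Levels in CPM of 7 genes, and the percent of endothelial cells (thinned to 5000 UMIs) with 3 or more of the 10 genes detected, by the number of *NR2F2* UMIs in the cell, for organoids 32.7 (circles) and 33.10 (triangles). *STAB1* and *STAB2* are higher in each bin than in the bin to its left, and the percent goes from 3.75 and 4.17 at 0 UMIs to 37.2 and 43.2 at 8 or more.

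To count the genes per cell at equal depth, cells were thinned to 5000 UMIs, which kept 677 and 609 NR2F2-positive and 1522 and 1487 NR2F2-zero cells of at least that depth. At least 3 of the 10 genes were detected in 28.7% of the NR2F2-positive cells of organoid 32.7 (194 of 677, exact 95% binomial interval 25.3 to 32.2%) and 25.5% of those of organoid 33.10 (155 of 609, 22.04 to 29.11%). In NR2F2-zero cells the shares were 3.75% (2.85 to 4.83%) and 4.17% (3.21 to 5.31%). None of the 10 genes was detected in 87 and 91 NR2F2-positive cells. Most cells held 1 or 2 of the genes, 179 and 175 cells with 1 and 217 and 188 with 2, and 139 cells of organoid 32.7 lay exactly at 3. These intervals cover counting error only.

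Pairs of the genes differed in how often they were detected in the same NR2F2-positive cell. The number of cells with both genes of a pair was divided by the number that the shares of each gene would give if they were unrelated. *STAB1* and *STAB2* were together in 28 cells of organoid 32.7 against 11.8, a ratio of 2.37, and in 8 cells against 4.87 in organoid 33.10, too few for a ratio. *CRHBP* and *F8* were together in 22 and 20 cells against 11.3 and 10.98, ratios of 1.95 and 1.82. *OIT3* and *CRHBP* had ratios of 1.32 and 1.43 and *STAB1* and *CRHBP* 1.32 and 1.42. *LYVE1* and *CRHBP* were the opposite, with 3 and 4 cells against 16.0 and 9.27, ratios of 0.19 and 0.43, while *LYVE1* and *FCN3* had 1.28 and 1.29. Ratios of *STAB1* with *FCN3* were 0.98 and 1.01. In NR2F2-zero cells *OIT3* and *CRHBP* were again together more often than their shares give, in 19 and 45 cells against 8.64 and 12.1. Over the pairs with enough cells in both organoids the median ratio was 1.05, close to unrelated genes.

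Since *CRHBP* and *LYVE1* were rarely together, NR2F2-positive cells were divided by their detection, a split made after the co-detection had been seen and given without a test. *CRHBP* without *LYVE1* was detected in 209 and 205 cells, *LYVE1* without *CRHBP* in 48 and 23, and neither in 417 and 377. *OIT3* was at 371 and 412 CPM in the *CRHBP* cells, 132 and 120 CPM in the *LYVE1* cells and 194 and 176 CPM with neither. *F8* was at 22.2 and 19.4 CPM in the *CRHBP* cells and at 1.34 and 5.34 CPM in the *LYVE1* cells, where it rested on very few UMIs. *FCN3* had the other order, 373 and 302 CPM against 551 and 475 CPM. *STAB2* was at 39.7 and 15.2 CPM against 34.9 and 29.4 CPM, so neither class had more of it in both organoids.

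Genes outside the 10 also differed between these cells. *GATA4*, a transcription factor that sinusoidal endothelium of the liver depends on, was at 406 and 412 CPM in the *CRHBP* cells and 53.8 and 53.4 CPM in the *LYVE1* cells. *MAF*, another of its regulators, was at 353 and 325 CPM against 95.4 and 187 CPM, and *CLEC1B*, a lectin receptor of sinusoids and platelets, at 149 and 276 CPM against 2.69 and 13.3 CPM. In the *LYVE1* cells *CLEC1B* rested on very few UMIs. The arterial ligand gene *EFNB2* was at 84.4 and 92.7 CPM in the *CRHBP* cells and 364 and 432 CPM in the *LYVE1* cells, and *DLL4*, a NOTCH ligand, at 19.7 and 27.3 CPM against 91.4 and 120 CPM. *CDH5* was alike, at 370 and 340 CPM against 366 and 379 CPM. Median depths were 11465 and 10659 UMIs per cell in the *CRHBP* cells and 13979 and 13773 in the *LYVE1* cells. Markers of several other lineages were higher in the *CRHBP* cells of both organoids. The sums were 90.8 and 75.2 CPM against 20.2 and 26.7 CPM for macrophages and 119.9 and 138 CPM against 60.5 and 37.4 CPM for megakaryocytes. They were 95.3 and 163 CPM against 20.2 and 90.7 CPM for mesenchyme and 12.7 and 14.1 CPM against 1.34 and 13.3 CPM for erythroid cells. Cardiomyocyte markers had no common direction (111 and 87.3 CPM against 95.4 and 131 CPM), and endoderm markers were at 12.3 and 1.90 CPM against 13.4 and 2.67 CPM. The part of these cells in the differences was not tested.

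**Figure D3:**
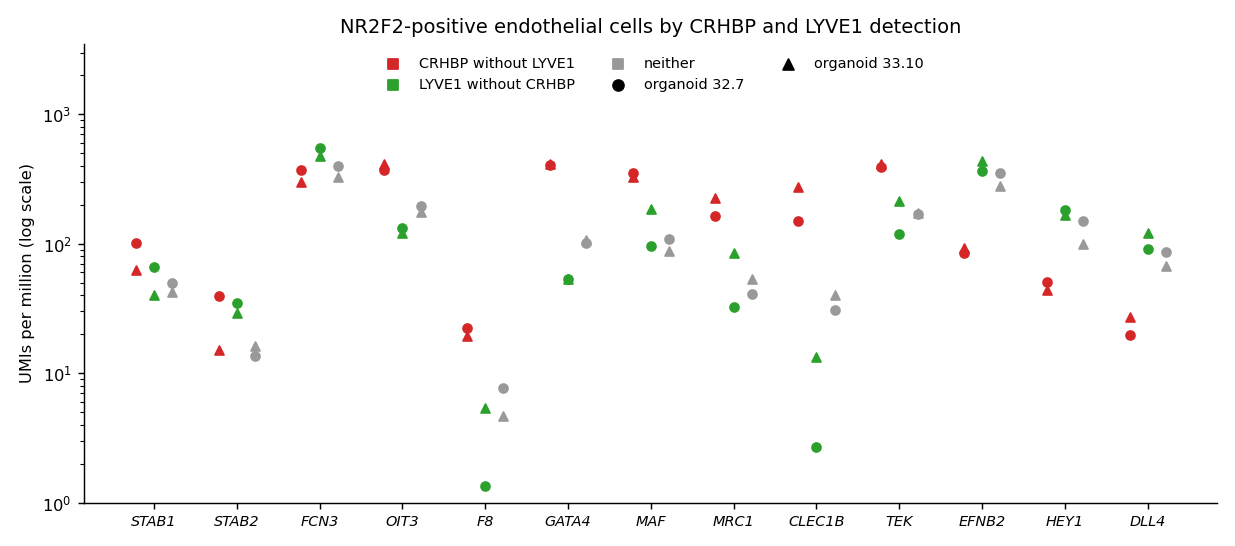
Levels (CPM, log scale) of 13 genes in NR2F2-positive endothelial cells with *CRHBP* but not *LYVE1* (red), with *LYVE1* but not *CRHBP* (green) and with neither (grey), for organoids 32.7 (circles) and 33.10 (triangles). *GATA4* is at 406 and 412 CPM in red and 53.8 and 53.4 CPM in green, and *EFNB2* at 84.4 and 92.7 CPM in red and 364 and 432 CPM in green.

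Genes other than the 10 were then tested. Among them *NR2F2*, the pan-endothelial genes and the lineage markers had been used by the gates on both classes. NR2F2-positive cells with 3 or more of the 10 genes (member-rich, 194 and 155 cells) were compared with those with none (member-free, 87 and 91 cells), on UMIs summed per organoid. In member-rich cells *CRHBP* was at 723 and 792 CPM, *FCN3* at 574 and 496 CPM and *OIT3* at 420 and 431 CPM. *STAB1*, *STAB2*, *LYVE1* and *F8* were at 19.4 to 114 CPM there, so the class rested unequally on the 10 genes. Of the lists, 5 of 18 sinusoidal and 6 of 8 venous genes were higher in the member-rich cells, and 6 of 10 arterial genes were lower. These called genes also differed in the same direction between NR2F2-positive and NR2F2-zero cells. With 5 CPM added, they did so at least 2-fold in both organoids, except *ZEB2*, *EPHB4* and *NT5E* (mean log2 ratios 0.71, 0.82 and 0.87). Of 20034 genes tested, 551 were higher (2.75%) and 357 lower (1.78%) at a Benjamini-Hochberg adjusted p under 0.05 (edgeR, quasi-likelihood F-test), the 10 genes left out. Such p-values reflect how far 2 organoids differed in all classes of the fit, not only in the classes compared. Both compared classes were drawn from 1 set of cells per organoid. With only endothelial classes in the fit, 661 of 14593 genes tested were higher and 495 lower. When 1 organoid was left out of both classes, so that a single sample stood for each, the spread came from the other classes in the fit and the lone sample was assumed to vary like them. Calls made this way show how a value depends on 1 organoid and are no replicate test. By it 221 genes passed without organoid 32.7 and 199 without organoid 33.10. *NR2F2* itself was at 412 and 374 CPM in member-rich and 188 and 184 CPM in member-free cells, and with at least 3 *NR2F2* UMIs required of both classes 351 genes passed, 235 of them higher.

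Of 18 other sinusoidal and scavenging genes, 5 rose (2.75% of all genes rose) and none fell, with a median log2 fold change of 0.63 against 0.01 over all genes. *GATA4* was at 289 and 382 CPM in member-rich and 55.9 and 73.0 CPM in member-free cells, without overlap, a log2 fold change of 2.47 (SE 0.24, adjusted p = 1.56e-05). *MAF* was at 305 and 314 CPM against 55.9 and 63.6 CPM, 2.47 (SE 0.36, adjusted p = 0.000441). *CLEC1B* was at 131 and 264 CPM against 0.650 and 3.38 CPM, 6.70 (SE 0.78, adjusted p = 5.45e-05). Its member-free levels rested on very few UMIs, so the size of this change is uncertain. The mannose receptor gene *MRC1* was at 138 and 219 CPM against 26.0 and 28.4 CPM, 2.80 (SE 0.40, adjusted p = 0.000441). *ZEB2*, a regulator of this endothelium and of many other cells, rose little, by 0.46 (SE 0.13, adjusted p = 0.0467). *GATA4* and *CLEC1B* passed without either organoid, *MAF* did not pass without organoid 32.7 (adjusted p = 0.0523), *MRC1* not without organoid 33.10 (0.0596) and *ZEB2* without either (0.304 and 0.468). With at least 3 *NR2F2* UMIs required, *ZEB2* did not pass (0.0592), *MAF* was at 1.59 (0.0294) and *MRC1* at 2.05 (0.0189). *DAB2*, an endocytic adaptor, had a log2 fold change of 0.70 and missed the threshold (adjusted p = 0.054), which it passed with the organoid as a block (0.0161). It did not pass with at least 3 *NR2F2* UMIs required (0.443), and passed under 7 of 16 alternative settings. The lysosomal protease gene *LGMN* was at 0.56 (adjusted p = 0.208). *MEIS2*, a homeobox gene, was at 0.53 (adjusted p = 0.0543), and passed with the block (0.00924). It passed under 3 of the 16 alternatives, and its direction was reversed under 2. Of the other list genes, *TFEC* (-2.13), *RELN* (-2.03), *HGF* (-1.82) and *RSPO3* (-1.36) were lower without passing. Their adjusted p was 0.165 to 0.594, and none was above 18.9 CPM in a class. *DNASE1L3* (2.37), *FCGR2B* (2.35), *CD36* (1.47), *CCL23* (0.81) and *CTSL* (0.13) were higher without passing. *WNT2* had no UMI in either class.

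Of 8 venous genes, 6 rose and none fell, with a median log2 fold change of 1.36. The vein receptor gene *EPHB4* was at 148 and 129 CPM in member-rich and 64.3 and 53.4 CPM in member-free cells (log2 fold change 1.34, SE 0.19, adjusted p = 0.000334). *TEK*, the angiopoietin receptor, was at 353 and 409 CPM against 108 and 126 CPM (1.80, SE 0.26). *APLNR*, the apelin receptor, rose by 1.29, the semaphorin co-receptor gene *NRP2* by 1.37, *NT5E* by 1.06 and *NR2F1*, the relative of *NR2F2*, by 2.17. *NRP2* and *NT5E* did not pass without organoid 32.7 (adjusted p = 0.111 and 0.228), nor *NR2F1* without either (0.356 and 0.319). With at least 3 *NR2F2* UMIs required, *NT5E* (adjusted p = 0.0552) and *NR2F1* (0.132) did not pass, and *TEK* was at 1.19 (0.0249), *NRP2* at 1.10 (0.0153), *EPHB4* at 1.09 (0.00978) and *APLNR* at 0.83 (0.0296).

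Of 10 arterial genes, 6 fell and none rose, with a median log2 fold change of -1.19. *CXCR4*, the chemokine receptor, was at 23.9 and 32.6 CPM in member-rich and 118 and 148 CPM in member-free cells (log2 fold change -2.15, SE 0.24, adjusted p = 3.38e-05). *UNC5B*, a netrin receptor gene, was at 51.7 and 44.7 CPM against 164 and 189 CPM (-1.76, SE 0.20). The NOTCH target *HEY2* was at 11.6 and 7.78 CPM against 43.5 and 39.2 CPM (-1.96, SE 0.29). *EFNB2*, *HEY1* and *SOX17* fell by 1.56, 1.27 and 1.10 on the log2 scale, and did not pass without organoid 32.7 (adjusted p = 0.104, 0.0523 and 0.204) or organoid 33.10 (0.286, 0.189 and 0.376). With at least 3 *NR2F2* UMIs required in both classes, *UNC5B* passed (adjusted p = 0.0417) and the other 5 did not (0.0909 to 0.513). *DLL4* was at -0.97 (adjusted p = 0.0838) and passed with the organoid as a block (0.00591), as did the gap junction gene *GJA4*, at -0.80 (0.162, and 0.0182 with the block). *DLL4* did not pass with at least 3 *NR2F2* UMIs required (0.482), and passed under 5 of 16 alternatives. *GJA4* passed under 1 of the 16, the block itself, and was reversed under 1.

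Few genes of the other endothelial lists passed. Median log2 fold changes were 0.41 for lymphatic, -0.13 for capillary, 0.34 for endocardial and 0.07 for pan-endothelial genes. Over all genes the median was 0.01, and 2.75% rose and 1.78% fell. Of 6 lymphatic genes 1 rose, the vascular matrix gene *MMRN1* (log2 fold change 1.64, SE 0.40), which did not pass without organoid 32.7 (adjusted p = 0.165) or 33.10 (0.419) or with 3 *NR2F2* UMIs required (0.214). Of 7 capillary genes 1 fell, *CD34* (-1.11, SE 0.28), which did not pass without either (0.18 and 0.422) or with 3 *NR2F2* UMIs (0.125). None of 6 endocardial genes and none of the 7 pan-endothelial genes passed, with 3211 of all genes tested under an unadjusted p of 0.05. The pan-endothelial genes had also chosen the cells of both classes, so a difference in them was limited by the gate. *PECAM1* was at -0.66 (adjusted p = 0.0642) and passed with the block (0.0144). It passed under 4 of 16 alternatives and was reversed under 1.

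**Figure D4:**
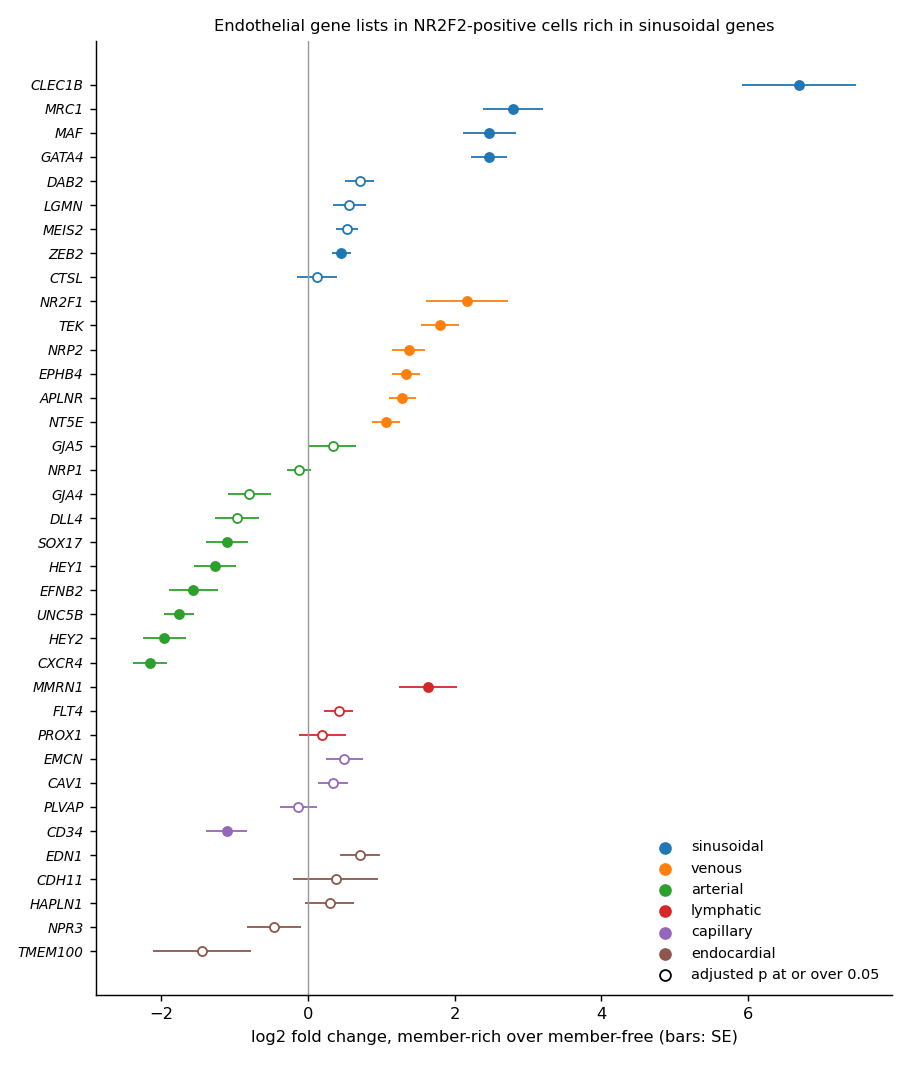
Log2 fold change of member-rich over member-free NR2F2-positive endothelial cells (bars, SE) for list genes at 20 CPM or more in a class, coloured by list, with open points for an adjusted p at or over 0.05. Sinusoidal and venous genes that passed lie above 0, up to 6.70 for *CLEC1B*, and arterial genes that passed lie below 0, down to -2.15 for *CXCR4*. *CLEC1B* rested on very few UMIs in member-free cells.

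The largest other increases among genes at 20 CPM or more were in *ACP5*, a lysosomal acid phosphatase gene, at 90.4 and 110 CPM in member-rich and 9.10 and 3.38 CPM in member-free cells (log2 fold change 4.09, SE 0.53), and in *FGF23*, a hormone gene of phosphate balance, at 173 and 312 CPM against 7.80 and 33.1 CPM (3.66, SE 0.60). They were followed by *S100Z* (3.63), *CDH12* (3.51), the matrix gene *CCDC80* (3.30), the sialic acid lyase gene *NPL* (3.20), *ANGPTL4*, an inhibitor of lipoprotein lipase (3.05), the amino acid transporter gene *SLC7A8* (3.03) and *SPON1* (3.02). Each of these 9 kept its direction without either organoid. In member-free cells of organoid 33.10, *ACP5*, *S100Z* and *SLC7A8* were at 3.38 CPM, the level of *CLEC1B* there. They rested on very few UMIs, so the sizes of their changes are uncertain.

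The largest decreases were in the transcript *AC080132.1* (-3.94), the potassium channel gene *KCNQ5* (-3.75), the transcript *AC114757.1* (-3.21), the netrin receptor gene *DCC* (-3.20) and *RUNX1*, a transcription factor of haemogenic endothelium and blood cells. *RUNX1* was at 6.15 and 7.78 CPM in member-rich and 54.6 and 78.5 CPM in member-free cells (log2 fold change -3.17, SE 0.39, adjusted p = 8.86e-05). It was at 0.19 (adjusted p = 0.942) when the 15% of cells with the most UMIs were left out. Erythroid markers summed to 8.68 and 14.1 CPM in member-rich and 12.3 and 53.4 CPM in member-free cells, and none passed. Cells that met the erythroid or another blood gate had been set aside, so a difference in these markers was limited by the gate. Megakaryocyte and macrophage markers had the other direction and granulocyte markers no common one. The part of blood cell RNA in *RUNX1* was not tested. *DEPTOR*, an inhibitor of the mTOR kinase (-3.10), *MPPED2* (-2.90), *AC007422.1* (-2.89), the phosphodiesterase gene *PDE3A* (-2.86) and *NHS* (-2.77) completed the list. In member-rich cells *DCC* was at 1.46 and *AC007422.1* at 0.486 CPM in organoid 33.10, and *PDE3A* at 1.45 CPM in organoid 32.7. The sizes of these 3 changes are therefore uncertain. *KCNQ5* did not pass without organoid 32.7 (adjusted p = 0.239), *DCC* without organoid 33.10 (0.189), and *AC007422.1* and *PDE3A* without either (0.0511 and 0.275, 0.57 and 0.133). *PDE3A* also did not pass with the organoid as a block (0.0545) or with 3 *NR2F2* UMIs required (0.213), where *DEPTOR* was at -1.53 and did not pass (0.331).

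*MRC1*, *MAF*, *ACP5* and *CD68* are macrophage genes too, and *CLEC1B* is a gene of platelets, so markers of these cells were read in the same classes. The 7 macrophage markers summed to 73.4 and 66.6 CPM in member-rich and 61.7 and 56.8 CPM in member-free cells, most of it *AIF1*. In member-rich cells *CD14* was at 0 and 0.486 CPM and *CSF1R* at 0 and 0, against 519 and 537 CPM of *CD14* in macrophages. Both genes are markers of the macrophage gate, which set these classes apart, so this difference was favoured in advance. The part of macrophage RNA was not tested. *CD68* rose by 1.68 (SE 0.44, adjusted p = 0.0351) and did not pass with the organoid as a block (0.06) or without organoid 32.7 (0.517) or 33.10 (0.189), or with 3 *NR2F2* UMIs required (0.123). The 7 megakaryocyte markers summed to 118 and 122 CPM against 63.7 and 71.7 CPM, and none passed, with *PF4* at 1.11 (adjusted p = 0.428) and *PPBP* at 1.47 (0.153). Per UMI of *PF4* there were 2.22 and 5.27 UMIs of *CLEC1B* in member-rich cells, 0.0238 and 0.125 in member-free cells and 0.0284 and 0.0279 in megakaryocytes. The member-free ratios rested on very few UMIs of *CLEC1B*. *PF4* is itself a marker of the megakaryocyte gate, and the part of megakaryocyte or platelet RNA in *CLEC1B* was not tested. Of the 9 mesenchymal markers *PDGFRA* rose, at 10.1 and 16.0 CPM against 5.20 and 4.06 CPM (1.56, SE 0.33, adjusted p = 0.00873), and did not pass without organoid 33.10 (0.447) or with 3 *NR2F2* UMIs (0.0611), while *COL1A1* was at 7.60 and 25.3 CPM against 45.5 and 32.5 CPM. All mesenchymal markers summed to 66.9 and 150 CPM in member-rich and 152 and 137 CPM in member-free cells. Cardiomyocyte markers summed to 98.0 and 81.2 CPM against 85.8 and 96.0 CPM. Levels of *GATA4* in mesenchyme and cardiomyocytes are not given here, and the part of their RNA in it was not tested. The member-free cells were deeper, with medians of 16336 and 13896 UMIs per cell against 12103.5 and 11668, and the part of depth was not tested.

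Outside the endothelium the genes differed in where they were found. The counts still hold free RNA, so low shares of cells with a UMI were read against blood classes. *FCN3*, *OIT3*, *STAB2* and *CRHBP* had their highest mean level in NR2F2-positive endothelial cells among 8 classes. *STAB1* was at 64.9 and 64.4 CPM in macrophages, a range that overlapped the NR2F2-positive endothelium (65.7 and 50.4 CPM), with NR2F2-zero endothelium next and the other 5 classes at means of 6.75 CPM or less. *LYVE1* was at 22.5 and 29.4 CPM in macrophages, overlapping both endothelial classes, and at 10.8 and 10.2 CPM in megakaryocytes. Among the 6 other classes, *FCN3*, *OIT3* and *STAB2* were at no more than 15.2, 17.1 and 4.17 CPM, in cardiomyocytes. Cells that passed no gate or more than 1 are not among these classes. Of 16792 and 19893 cells, 3926 and 4714 passed no gate and 2981 and 3392 had mixed markers. Levels of *STAB1*, *STAB2*, *LYVE1* and *F8* in them are not given here. *FCN3* was at 89.2 and 88.3 CPM and *OIT3* at 52.4 and 63.8 CPM in cells of no gate, and at 64.5 and 49.2 CPM and 28.8 and 33.1 CPM in cells of mixed markers. *CRHBP* had means of 92.4 CPM in cells of no gate and 58.7 CPM in cells of mixed markers. Its means were 75.5 CPM in mesenchymal and epicardial cells and 66.2 CPM in cardiomyocytes.

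*F8* was highest in mesenchymal and epicardial cells, at 25.4 and 40.5 CPM, above cardiomyocytes (12.7 and 18.0 CPM) and NR2F2-positive endothelium (11.3 and 9.73 CPM), and these 3 classes did not overlap. Endothelium with *NR2F2* and megakaryocytes (6.85 and 13.3 CPM) overlapped. After thinning to 3000 UMIs, *F8* was detected in 6.52% and 10.6% of mesenchymal cells, in 3.31% and 3.46% of NR2F2-positive endothelial cells and in 0.23% and 0.889% of macrophages. Within the mesenchyme it was at 29.1 and 42.7 CPM in cells with a UMI of the epicardial genes *WT1*, *TBX18* or *TCF21* and at 12.3 and 26.7 CPM in those without. It was at 25.5 and 40.5 CPM in mesenchymal cells that had no *CDH5*.

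*CRHBP* was at 53.0 and 97.9 CPM in mesenchymal and epicardial cells and at 68.0 and 64.4 CPM in cardiomyocytes, which overlapped, and at no more than 13.5 CPM in blood classes. It was detected in 12.0% of the thinned cardiomyocytes of each organoid and in 4.66% and 11.2% of mesenchymal cells, against 1.54% and 1.35% of megakaryocytes and 0.557% and 0.798% of erythroid cells. Within the mesenchyme it did not follow *NR2F2*, at 51.2 and 70.8 CPM in NR2F2-positive and 53.9 and 112 CPM in NR2F2-zero cells. The cardiomyocyte class also held 174 and 141 CPM of *COL1A1*, against 26.1 and 26.6 CPM in megakaryocytes, and the part of mesenchymal RNA in its *CRHBP* was not tested.

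**Figure D5:**
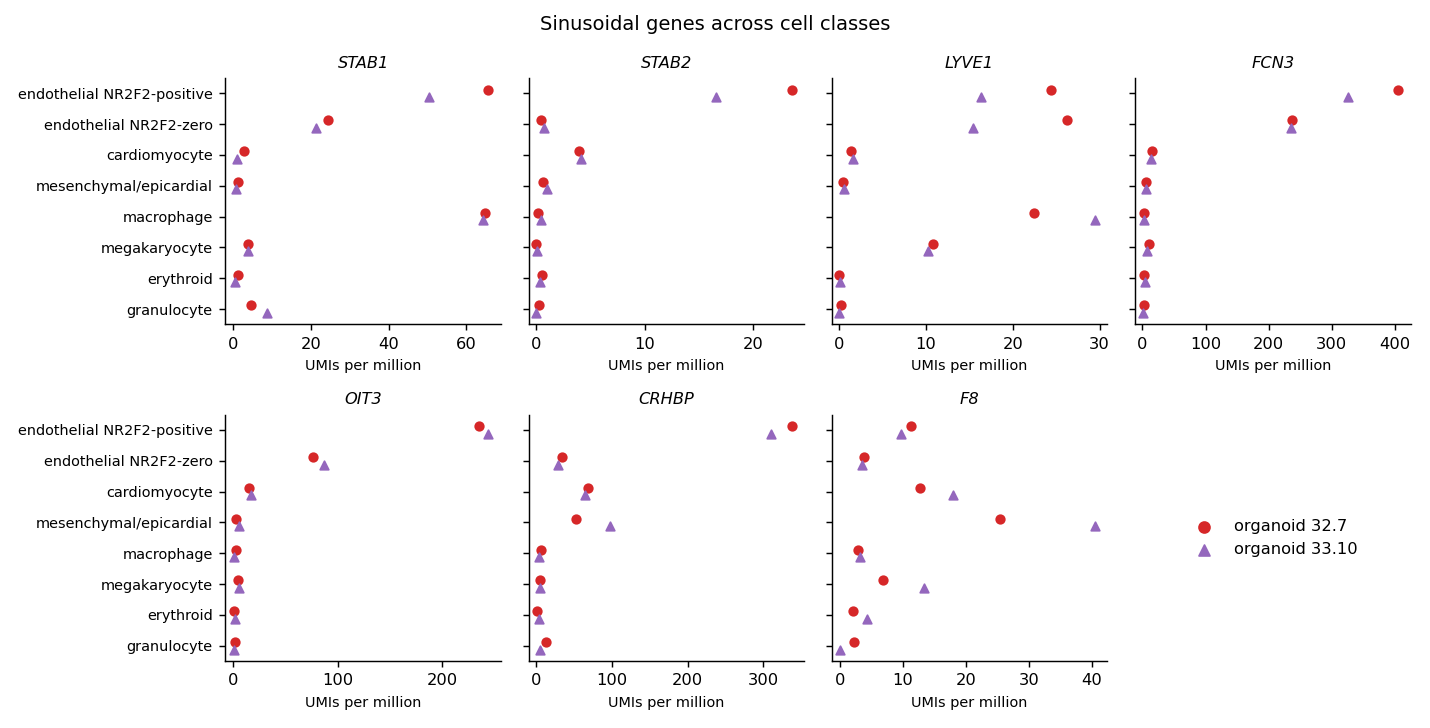
Level (CPM, linear axes that differ between panels) of 7 genes in 8 cell classes of organoids 32.7 (circles) and 33.10 (triangles). *FCN3*, *OIT3*, *STAB2* and *CRHBP* are highest in NR2F2-positive endothelium, *STAB1* and *LYVE1* are as high in macrophages, and *F8* is highest in mesenchymal and epicardial cells (25.4 and 40.5 CPM).

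The partners of the secreted proteins were read as well. None of *VWF*, *LMAN1*, *MCFD2* and *LRP1*, which carry, export or clear factor VIII, passed between member-rich and member-free cells, nor did *F8A1*, which lies within *F8* and encodes an unrelated protein. *VWF*, whose product carries factor VIII in blood, was low, at 9.17 and 9.62 CPM in NR2F2-positive and 3.05 and 5.11 CPM in NR2F2-zero cells, and at 0.558 and 0.716 CPM in the mesenchyme. *LMAN1* and *MCFD2*, the cargo receptor for its export, were at 201 and 184 and at 99.3 and 102 CPM in the mesenchyme. Of 6 lectin pathway genes 5 could be tested and none passed. The protease gene *MASP1* was at 212 and 204 CPM in cardiomyocytes and 24.5 and 31.1 CPM in NR2F2-positive endothelium, the collectin gene *COLEC11* at 108 and 120 CPM in the mesenchyme, and *FCN1* at 214 and 244 CPM in granulocytes and 137 and 75.8 CPM in macrophages. *MBL2* had 8 and 5 UMIs in all cells. The hormone *CRH*, which *CRHBP* binds, had 5 and 63 UMIs in all cells and its receptor gene *CRHR1* 2 and 11.

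The genes whose levels were most like each of the 7 were named by the Pearson correlation of log2(CPM + 5) over 8 classes in 2 organoids, 16 points that share libraries and mostly follow the difference between endothelium and other cells. *GIMAP5* and *GIMAP6* were closest to *STAB1* (r = 0.98 for both), *SPOCK3*, *TINAGL1* and *GPR182* to *STAB2* (0.98, 0.96 and 0.95), and *TCIM*, *SOX7* and *SHE* to *FCN3* (all 0.99). *FAM189A1*, *APLNR* and *FCN3* were closest to *OIT3* (0.99, 0.98 and 0.98), *THSD7A* to *CRHBP* (0.95), *AKIP1* to *LYVE1* (0.97) and *AC104596.1* to *F8* (0.97).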

How the data were processed

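Single cells of 2 BG-HFOs were sequenced by 10x Genomics 3′ chemistry. The authors aligned reads to GRCh38 with Cell Ranger, with intronic reads included, and deposited whole-number UMI counts per gene and barcode (191152562 and 233818881 UMIs, 16866 and 19948 barcodes), which precede their equalization of depth, SoupX correction for free RNA and cell filter. The counts used here thus include free RNA.

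Barcodes needed between 50 and 11000 detected genes, with mitochondrial UMIs below 30%. A non-endothelial lineage needed 3 markers at 2 or more UMIs each and no other lineage. Doublets were removed only through these gates. Levels are CPM of UMIs summed per class. Thinning drew UMIs without replacement. The test was edgeR 4.0.16 (R 4.3.3, TMM, filterByExpr), with all classes of 20 or more cells in 1 fit. The standard error is the log2 fold change over the square root of F. Counts were also simulated for this comparison (19695 genes). In them, 64 of 100 genes changed by a log2 of 1 and 99 of 100 changed by 2 were recovered. False calls were 3.55%. These rates describe the simulated counts only. Whether the real counts, whose classes share an organoid and were chosen by the 10 genes, vary in the same way was not tested. The rates are therefore not error rates of the comparison itself. DESeq2 1.42.0 was an alternative.

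Classes of an organoid share that organoid and are paired by design. The main fit had no term for the organoid and so did not use this pairing. The fit with the organoid as a block did. Over 20041 genes, the difference between organoids in member-rich cells correlated with that in member-free cells (r = 0.13). The genes, lists and tests were chosen with earlier results of these data known. Genes named in the test were those of the lists and the 10 largest changes per direction at 20 CPM or more with 1 direction in both organoids. Gene positions are from GENCODE and promoters from RefSeq (GRCh38.p14).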

Additional observations from a re-analysis of the deposited data

How the results depend on the processing

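The number of the 10 genes at least 2-fold higher in NR2F2-positive cells was 3 to 5 over 9 alternatives. The median log2 ratio of the 7 genes above 5 CPM was 1.17, and was 0.81 with every *CDH5*-positive cell, 0.85 with cells of a second lineage kept and 1.49 with *NR2F2* at 3 UMIs or more; it stayed above 0 throughout, and was 1.08 to 1.27 with 1 organoid left out. The share of NR2F2-positive cells with 3 or more genes was 21.2% and 19.5% with every *CDH5*-positive cell, 22.5% and 19.6% with cells of a second lineage kept, 36.5% and 34.7% with *NR2F2* at 3 UMIs or more, 17.5% and 14.9% at 3000 UMIs, and 32.9% in organoid 32.7 when cells were thinned first. The median co-detection ratio was 0.98 to 1.03 in single organoids, and the number of genes highest in NR2F2-positive endothelium was 4 or 5.

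Of 908 genes changed between member-rich and member-free cells, 351 were left (235 higher, 116 lower) with *NR2F2* at 3 UMIs or more, 590 (352 higher) when cells were thinned first and 442 (304 and 138) with 2 or more genes as the limit. Decreases were 813 with every *CDH5*-positive cell and 635 with cells of a second lineage kept, beside 546 and 492 increases. Without 1 organoid there were 199 to 221 (130 to 139 higher, 60 to 91 lower), with fewer samples. The cause of the other changes was not tested. With the organoid as a replicate block, 1232 passed (793 higher, 439 lower), and the block changed no call of a named gene other than those given above. DESeq2 called 1108 (613 and 495). Of 40 named genes called, all 40 kept their direction and 23 their call without either organoid, and 19 passed under all 16 alternatives. Of the 40, 4 were reversed under an alternative. With every *CDH5*-positive cell and with cells of a second lineage kept, *ZEB2* was at -0.018 and -0.049 and *PDGFRA* at -1.04 and -0.92. *CD68* was at -0.24 and -0.30 there, and *RUNX1* was at 0.19 without the deepest 15% of cells. Genes not called were reversed too, among them *MEIS2* under 2 alternatives and *GJA4* and *PECAM1* under 1 each. Genes at 3 or fewer UMIs per class (*CLEC4G*, *CLEC4M*) are limited by depth.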
